A study of Homo sapiens with 32 samples.

Results

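The duration of the transcriptional response to epidermal growth factor (EGF) was examined in HEK293, a human cell line of embryonic kidney origin, by comparing the EGF effect after 24 h with that after 6 h. The 16 libraries used, of 32 in the series, were all those of cells left without stimulus (Control) or given EGF (10 µg/l) alone for either time, 4 per group. Every culture had been transiently transfected with the angiotensin II receptor AT1R and was kept in serum-free medium during stimulation, and none of these 16 received angiotensin II. For each gene the EGF effect is the log2 ratio of EGF to Control libraries of the same time, and the time difference is the 24 h effect minus the 6 h effect. Of 20327 protein-coding genes in the count tables, 13668 had enough counts in the 16 libraries to be tested. No source gives separate cultures for the replicates, so the p-values measure the spread between these libraries only.

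EGF binds the receptor tyrosine kinase EGFR, which signals through RAS, RAF, MEK and ERK and through PI3K and AKT. ERK phosphorylates ternary complex factors bound with SRF at CArG boxes, and so switches on immediate early genes such as FOS and EGR1 within minutes. These genes are known to be shut off again by proteins that the same signal induces, among them DUSP phosphatases, SPRY and SPRED proteins and the EGR corepressor NAB2, while metabolic and secreted products appear with delay.

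The tables of the 6 h and the 24 h libraries differed in composition. In the 6 h libraries 81.6% to 84.7% of counts fell on protein-coding genes, and in the 24 h libraries 35.6% to 63.4%, with 8.90% to 33.5% on U1 small nuclear RNA alone. The protein-coding counts themselves were similar in number, with 3673035 to 7033501 per library after 6 h and 3745294 to 8017024 after 24 h. Within a group the libraries are called 1 to 4 in the order of their numbers. The biological coefficient of variation was 9.65% after 6 h and 21.9% after 24 h, and the median standard error of an effect was 0.13 and 0.20 on the log2 scale. Summed HEK293 markers exceeded those of leukocyte, endothelial, fibroblast and differentiated tubule cells in every group, although PAX2, one of the 9 HEK293 markers, had 0 to 9 counts. The sum rested mainly on NEFM, NEFL and VIM (535, 550 and 376 per 1000000 protein-coding counts in the 6 h controls), and NEFM itself changed with EGF. LHX1, KRT8 and KRT18 (8.02, 12 and 4.23) lay there below the fibroblast marker COL1A1 (20.4) and the tubule marker LRP2 (16.4). Because handling and table differ with time, a change in level between 6 h and 24 h cannot be told apart from a difference in preparation, and the effects are ratios within a time.

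Most of the 6 h response was no longer detectable gene by gene after 24 h, and few genes showed a measured loss. A gene was called when its Benjamini-Hochberg adjusted p in edgeR's quasi-likelihood test was under 0.05, the fold change exceeded 1.5 and the mean level exceeded 5 FPM, that is, fragments per 1000000 protein-coding counts after TMM scaling. After 6 h, 175 genes were called higher with EGF (1.28% of those tested) and 121 lower (0.885%). After 24 h, 9 were called higher (0.0658%) and 1 lower (0.00732%). The time difference itself was called for 15 genes, 7 with a higher effect after 24 h (0.0512%) and 8 with a lower one (0.0585%). At an unadjusted p under 0.05 there were 3032 genes after 6 h, 1131 after 24 h and 1372 for the time difference. Of the 296 genes called after 6 h, 9 faded, meaning that the time difference was called in the direction opposite to the 6 h effect. This class takes in effects that shrank and effects that turned their sign. Of the 296, 4 lasted, meaning a call in the same direction at both times. EGR1 belonged to both classes, and for 284 genes neither the 24 h effect nor the time difference was called. Only HERPUD1 was late, with a 24 h effect and a time difference both called.

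**Figure D1:**
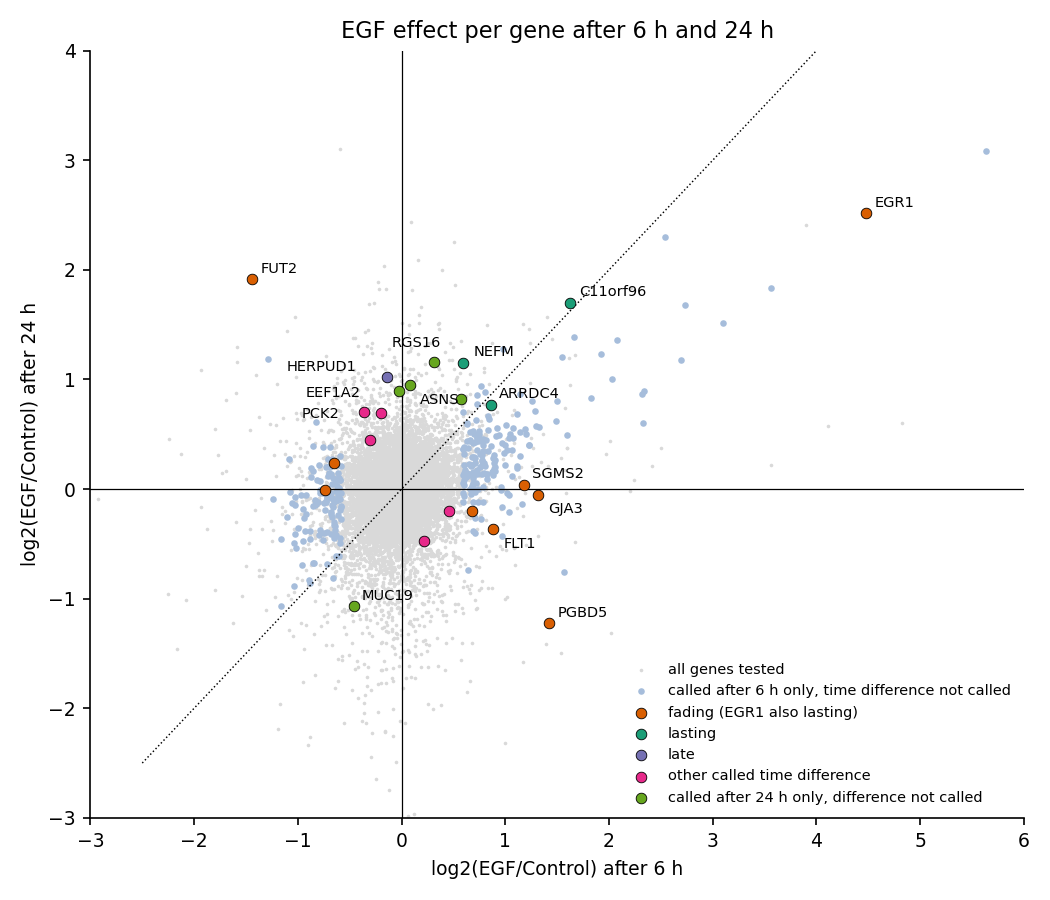
Scatter of the EGF effect, log2(EGF/Control), after 6 h (x axis) against 24 h (y axis), one point per gene tested, with called genes coloured by class and the dotted line marking equal effects. EGR1 and C11orf96 stand far from 0 on both axes, SGMS2 and GJA3 lie near 0 on the 24 h axis, and 8 of the 13668 genes fall outside the axes.

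EGR1, a zinc finger transcription factor and classical immediate early gene, had the firmest fading and lasting response at once. In the 6 h controls it stood at 1.65, 2.29, 3.44 and 3.34 FPM, and with EGF at 64.9, 65.6, 58.5 and 56.8 FPM. After 24 h the controls held 12.6, 8.86, 13.9 and 9.88 FPM and the EGF libraries 60.4, 62.1, 76.6 and 59.1 FPM. The EGF libraries lay far above the controls at both times and overlapped between the times, whereas all 24 h controls lay above all 6 h controls. The EGF effect was 4.48 ± 0.17 (standard error, n = 4 per group) after 6 h and 2.52 ± 0.20 after 24 h (edgeR adjusted p = 8.63e-08). The time difference was -1.97 ± 0.28 (95% interval -2.53 to -1.40, edgeR adjusted p = 0.00205). It was the only gene of the 15 whose time difference was called without any 1 of the 16 libraries and under every other setting tried. The smaller 24 h ratio went with a control mean of 11.3 FPM against 2.68 FPM after 6 h, at EGF means of 64.6 and 61.5 FPM.

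The sequence around the EGR1 start is shown because it carries the element through which SRF acts on immediate early genes. It is the RefSeq promoter on chr5:138465229-138465528 of GRCh38.p14, plus strand, from 250 bases before to 50 bases after the start, with CArG boxes in capitals.
EGR1: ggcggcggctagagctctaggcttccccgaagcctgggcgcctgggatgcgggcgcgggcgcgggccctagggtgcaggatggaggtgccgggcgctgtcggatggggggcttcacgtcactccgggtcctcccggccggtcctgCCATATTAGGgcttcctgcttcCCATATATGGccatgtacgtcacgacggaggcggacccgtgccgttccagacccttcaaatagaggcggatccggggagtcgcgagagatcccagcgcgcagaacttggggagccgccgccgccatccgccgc
Both boxes lay upstream of the start, at -105 to -96 and -83 to -74, and as near palindromes they read on either strand. A CArG box was held by 1.29% of 27305 promoters in the RefSeq table and by 1.04% of the 10902 found for tested genes. Of the 18 promoters found for tested immediate early genes, those of EGR1 and SRF held one.

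Of the other lasting genes, NEFM, the medium neurofilament subunit that HEK293 cells express at a high level, changed more after 24 h. Its 6 h controls held 426, 521, 543 and 623 FPM and the EGF libraries 688, 848, 829 and 832 FPM. The 24 h controls held 3274, 3035, 3113 and 3670 FPM and the EGF libraries 8587, 6934, 6171 and 7451 FPM. The groups did not overlap at either time, and the effect was 0.59 ± 0.10 and then 1.16 ± 0.09 (edgeR adjusted p = 8.63e-08 after 24 h). Its time difference of 0.56 (95% interval 0.26 to 0.86) was not called (edgeR adjusted p = 0.151). C11orf96, an uncharacterised open reading frame, held 5.72 to 8.49 FPM in the 6 h controls and 20.2 to 23.2 FPM with EGF. After 24 h its controls held 7.54 to 18.9 FPM and the EGF libraries 21.0, 37.2, 55.2 and 62.7 FPM, wider apart than after 6 h but above every control. ARRDC4, an arrestin-domain protein of the TXNIP family that restrains glucose uptake, held 37.5 to 42.6 FPM in the 6 h controls and 67.3 to 76.7 FPM with EGF. After 24 h it held 68.5 to 107 FPM in controls and 129 to 159 FPM with EGF. The effects of these 2 genes hardly moved with time, at 1.63 and 1.70 for C11orf96 (time difference 0.07, 95% interval -0.76 to 0.90) and 0.86 and 0.77 for ARRDC4 (time difference -0.09, 95% interval -0.46 to 0.28). The 24 h call of C11orf96 was lost without any 1 of 5 libraries, Control 3 or 4 or EGF 1, 2 or 4 (edgeR adjusted p up to 0.15), and under voom (limma adjusted p = 0.15), and that of ARRDC4 without any 24 h library but Control 2 (up to 0.18). The 24 h calls of EGR1 and NEFM held without each library, while the 6 h call of NEFM was lost, by its fold, without Control 1 or EGF 2, 3 or 4, and under voom (effect 0.55).

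**Figure D2:**
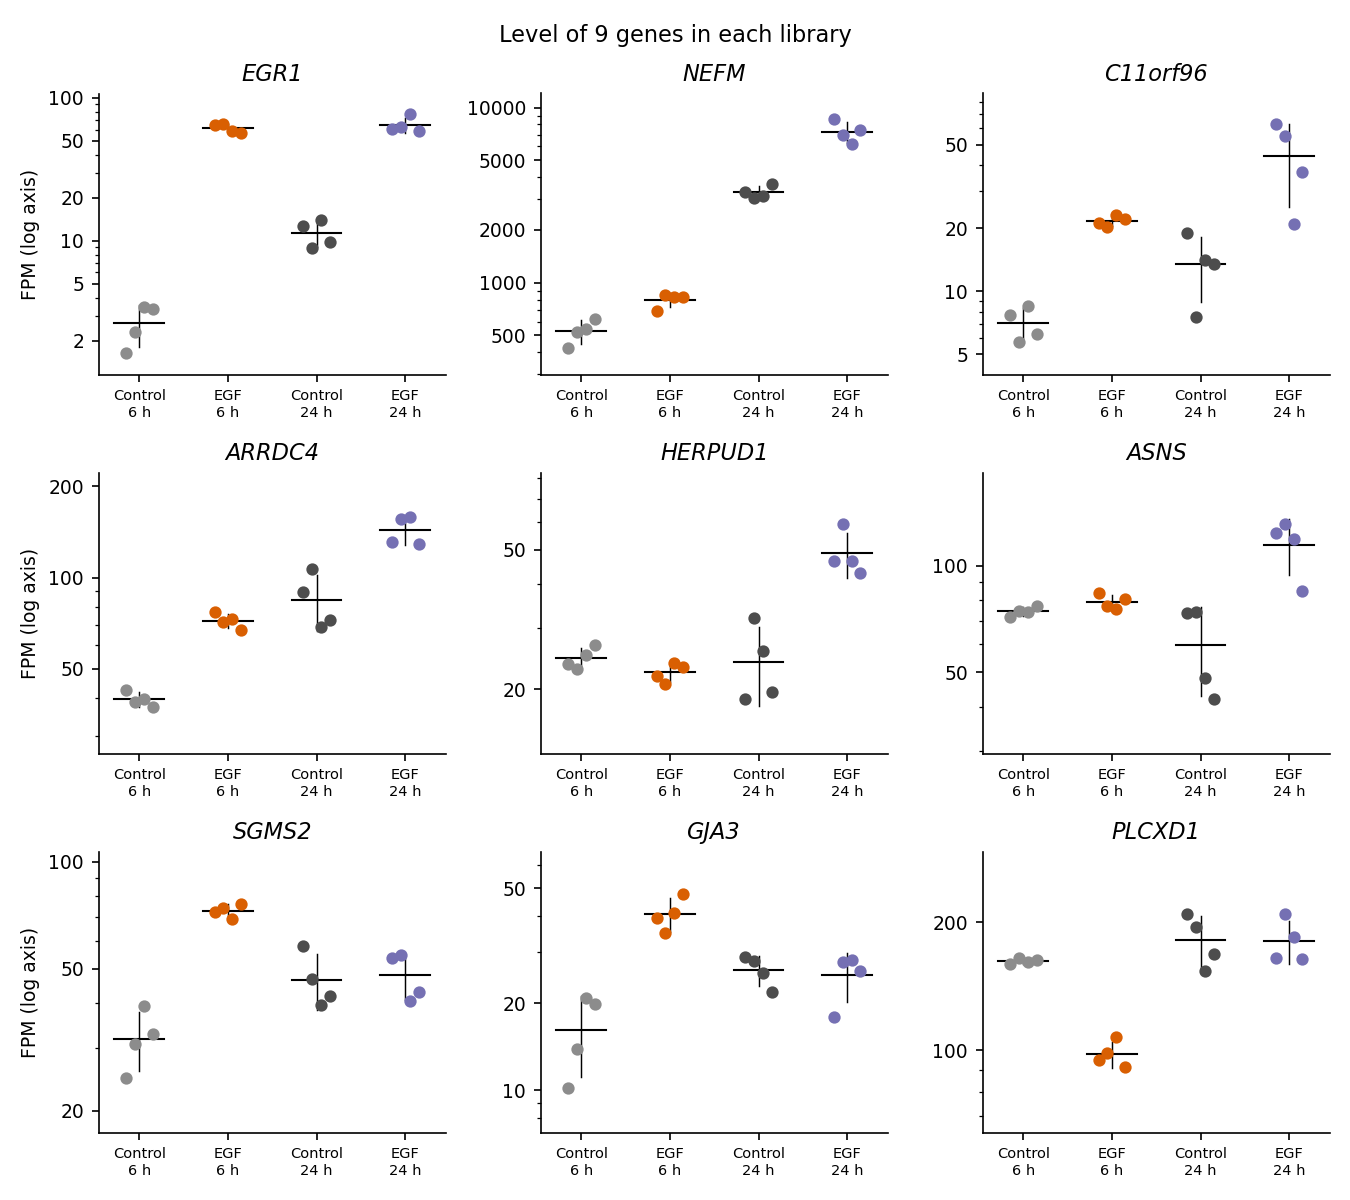
Level in FPM (log axis) of 9 genes in each of the 16 libraries by group, with the horizontal line at the group mean and the vertical line ± 1 SD (n = 4). EGF libraries stay above the 24 h controls for EGR1, NEFM, C11orf96 and ARRDC4, are above them only after 24 h for HERPUD1 and ASNS, and overlap them after 24 h for SGMS2, GJA3 and PLCXD1.

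Among 25 immediate early genes tested, 6 were called higher after 6 h (FOS, FOSL2, EGR1, EGR3, ARC and NR4A3) and only EGR1 after 24 h. Of all genes tested, 1.28% were called higher after 6 h and 0.0658% after 24 h. EGR3, a relative of EGR1, held 1.15 to 1.65 FPM in the 6 h controls and 7.34 to 9.94 FPM with EGF. After 24 h it held 2.24 to 5.28 FPM in controls and 11.3 to 13.2 FPM with EGF, again without overlap, and the 24 h effect of 1.68 narrowly missed the call (edgeR adjusted p = 0.0757). ARC, an activity-regulated cytoskeletal gene and SRF target, had effects of 2.54 and 2.30, but its 24 h controls ranged from 0 to 4.96 FPM against 6.70 to 12.7 FPM with EGF (edgeR adjusted p = 0.340). FOS, the AP-1 subunit, held 0.83 to 1.77 FPM in the 6 h controls and 4.52 to 7.35 FPM with EGF. Its 24 h groups overlapped, at 2.71 to 9.13 FPM in controls and 5.23 to 12.4 FPM with EGF. The FOS effect was 2.33 and then 0.60, with a time difference of -1.74 that was not called (95% interval -2.97 to -0.51, edgeR adjusted p = 0.293). NR4A3, an orphan nuclear receptor, and FOSL2, an AP-1 subunit, had overlapping 24 h groups and effects of 0.77 and 0.25 and of 0.60 and 0.05. The list median was 0.38 at both times, against -0.02 and -0.01 over all genes tested. Its median time difference was -0.02, with 12 of 25 above 0. Time differences of 4 genes were higher and of 5 lower at an unadjusted p under 0.05, where 4.53% and 5.51% of all genes tested were. At an unadjusted p under 0.05, 8 of the 25 were higher after 24 h, where 4.29% of all genes tested were, and none was lower, where 3.98% were. In 7 of the 25 every EGF library exceeded every control after 24 h, which held for 2.82% of all genes tested, while the opposite order held for 2.41%.

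Of 18 ERK feedback inhibitors tested, 6 were called higher after 6 h (DUSP4, DUSP5, SPRY2, SPRED1, SPRED2 and NAB2) and a different one, RGS16, after 24 h. Among all genes tested 1.28% were called higher after 6 h and 0.0658% after 24 h. NAB2, which represses EGR1 activity, stood at 4.82 to 9.35 FPM in the 6 h controls and 32.9 to 36.7 FPM with EGF, and at 7.14 to 9.04 FPM and 9.48 to 19.3 FPM after 24 h. Its effect was 2.32 and then 0.87, and the time difference of -1.46 (95% interval -2.12 to -0.80) was just outside the threshold (edgeR adjusted p = 0.0612). SPRED2, an inhibitor of RAF activation, had effects of 1.49 and 0.62 and a time difference of -0.89 (edgeR adjusted p = 0.0612). Both thus kept a higher mean with EGF after 24 h and no overlap with the controls. The phosphatases DUSP4 and DUSP5 had effects of 0.79 and 0.40 and of 1.6 and 0.49. SPRED1 and SPRY2, also feedback inhibitors of this list, had effects of 0.97 and 0.42 and of 0.75 and 0.53. SPRY4, below the count filter, had 3 counts in the 6 h controls and 37 with EGF, and 10 and 27 after 24 h, without overlap at either time. Its unadjusted p was 0.029 at each time, the smallest that 70 relabelings allow (exact permutation test, two-sided). Adjusted over the 19 list genes below the filter, the p of this test was 0.55 after 6 h and 0.54 after 24 h. DUSP6, often induced with these genes, had 19 and 30 counts after 6 h and 29 and 44 after 24 h (exact permutation test, two-sided, p = 0.40 and 0.74). RGS16, a GTPase-activating protein for G protein alpha subunits, held 17.5 to 26.9 FPM in the 6 h controls and 23.6 to 35.3 FPM with EGF, which overlapped. After 24 h it held 17.0 to 28.8 FPM in controls and 69.8, 42.0, 38.6 and 50.8 FPM with EGF. Its effect was 0.31 and then 1.16 (edgeR adjusted p = 0.0470), with a time difference of 0.85 that was not called (edgeR adjusted p = 0.289). The 24 h call of RGS16 was lost without any 1 of 5 libraries of that time, Control 1, 3 or 4 or EGF 1 or 4 (edgeR adjusted p up to 0.25). Over the 18 genes the median effect was 0.22 after 6 h and 0.44 after 24 h. After 24 h 14 had an effect above 0, where 49.1% of all genes tested had. At an unadjusted p under 0.05, 5 were then higher and none lower, where 4.29% and 3.98% of all genes tested were. After 6 h 8 were higher at that level, where 11.2% of all genes tested were, and 1 was lower. The time differences were mixed, with a median of 0.12 and 10 of 18 above 0. At the same level 2 were higher and 3 lower, where 4.53% and 5.51% of all genes tested were. No time difference of the list was called. Among ETS factors linked to ERK, ETV5 alone was called, after 6 h, from 3 control counts against 216 with EGF, a ratio of 58.0 (95% counting interval 19.6 to 284). ETV4, its relative, had effects of 1.61 and 1.2 at up to 4.39 FPM. After 24 h ETV5 held 0.14 to 2.12 FPM in controls and 3.04 to 9.49 FPM with EGF, with an effect of 3.09 (edgeR adjusted p = 0.174).

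Genes that were higher after 6 h and faded numbered 6, among them EGR1, PGBD5, GJA3, FLT1 and SGMS2. SGMS2, a sphingomyelin synthase, held 24.8 to 39.2 FPM in the 6 h controls and 68.9 to 76.4 FPM with EGF. After 24 h its groups coincided, at 39.5 to 58.2 FPM in controls and 40.7 to 54.6 FPM with EGF. The effect went from 1.18 to 0.04, a time difference of -1.15 ± 0.21 (edgeR adjusted p = 0.0216). GJA3, a connexin of gap junctions, had effects of 1.31 and -0.05 and FLT1, a receptor for VEGF, effects of 0.88 and -0.36 with the 24 h EGF libraries all below the controls (time differences -1.37 and -1.25, edgeR adjusted p = 0.0442 for each). PGBD5, derived from a piggyBac transposase, held 3.58 to 4.51 FPM in the 6 h controls and 9.49 to 13.1 FPM with EGF. After 24 h the order was turned, with 3.25 to 9.34 FPM in controls and 1.10 to 3.16 FPM with EGF, and the time difference was -2.64 ± 0.54 (edgeR adjusted p = 0.0442). For all 5 of these named genes the control mean was higher after 24 h than after 6 h, and for PGBD5, GJA3 and SGMS2 the EGF mean was lower. The call for SGMS2 was lost without any 1 of 7 libraries (edgeR adjusted p up to 0.076, without Control 2 of 6 h). Those for GJA3, FLT1 and PGBD5 were lost without any 1 of 11 libraries each, most clearly without EGF 1 of 6 h (edgeR adjusted p = 0.12, 0.14 and 0.14).

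The 3 genes that were lower after 6 h and faded were PLCXD1, R3HDM2 and FUT2. PLCXD1, which holds a phospholipase C domain, stood at 159, 165, 162 and 163 FPM in the 6 h controls and 94.7, 98.4, 107 and 91.5 FPM with EGF. The controls of 24 h held 153 to 209 FPM and the EGF libraries 164 to 208 FPM, which overlapped throughout. Its effect went from -0.73 to -0.00, a time difference of 0.72 ± 0.15 (edgeR adjusted p = 0.0442). R3HDM2, named for its R3H nucleic acid binding domain, had effects of -0.65 and 0.24 (time difference 0.89 ± 0.16, edgeR adjusted p = 0.0216). FUT2, a fucosyltransferase of blood group antigens, had few reads, with 19 to 62 counts in the 6 h controls and 10 to 21 with EGF. After 24 h the order was turned, with 6 to 23 counts in controls and 35 to 58 with EGF, and the time difference was 3.34 ± 0.61 (edgeR adjusted p = 0.0216). FUT2 thus had effects of opposite sign after 6 h and 24 h, but its 24 h effect was not called in the main fit. With DESeq2 it was also called late. Its 6 h controls held 10.45 and 11.82 FPM in libraries 1 and 2 but 4.36 and 4.91 FPM in libraries 3 and 4, against 1.44 to 3.76 FPM with EGF. Calls were lost without any 1 of 12 libraries for PLCXD1, 7 for R3HDM2 and 6 for FUT2, with edgeR adjusted p up to 0.14 and 0.080 without EGF 1 of 6 h and up to 0.077 without Control 1 of 6 h. TXNIP, the glucose uptake inhibitor that growth factors lower, had effects of -0.70 and 0.21, and its time difference of 0.90 was just outside the threshold (edgeR adjusted p = 0.0699).

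HERPUD1, an endoplasmic reticulum membrane protein of protein degradation that both ATF4 and the unfolded protein response are known to induce, was the late gene. Its 6 h controls held 23.7, 22.9, 25 and 26.7 FPM and the EGF libraries 21.8, 20.8, 23.7 and 23.2 FPM. After 24 h the controls held 18.7, 31.9, 25.8 and 19.6 FPM and the EGF libraries 46.4, 59.4, 46.5 and 43.0 FPM. The groups overlapped after 6 h and were apart after 24 h, at the same control mean (24.6 and 24.0 FPM). The effect was -0.14 ± 0.12 and then 1.02 ± 0.20 (edgeR adjusted p = 0.0470), a time difference of 1.15 ± 0.23 (edgeR adjusted p = 0.0442). The call of its time difference held only without Control 2 or EGF 4 of 24 h and was lost without any other single library (edgeR adjusted p up to 0.14, without EGF 1 of 6 h). Its 24 h call was lost without any 24 h library but Control 2 (up to 0.19, without Control 1).

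Beside HERPUD1 and the 4 lasting genes, 5 genes were called after 24 h without a called time difference: ASNS, RGS16, CLU, EEF1A2 and MUC19. All 10 genes called after 24 h had groups without overlap, which held upward for 2.82% and downward for 2.41% of all genes tested. The call used these same libraries, so this is a description. Of the 10, 8 had the sign of their 6 h effect. The 4 genes called at both times were 40.0% of the 24 h calls and 1.35% of the 6 h calls. ASNS, which makes asparagine and is a standard ATF4 target, held 71.5 to 77.1 FPM in the 6 h controls and 75.3 to 83.5 FPM with EGF. The controls of 24 h held 73.6, 74.2, 48.3 and 42.1 FPM and the EGF libraries 124, 131, 119 and 84.9 FPM. Its effect was 0.08 and then 0.95 (edgeR adjusted p = 0.0470), with a time difference of 0.86 (95% interval 0.42 to 1.31, edgeR adjusted p = 0.115). CLU, the secreted chaperone clusterin, held 53.2 to 59.4 FPM and 77.4 to 88.7 FPM after 6 h, and 45.8 to 61.1 FPM and 80.6 to 109 FPM after 24 h, with effects of 0.57 and 0.82. It missed the fold threshold after 6 h only. EEF1A2, a translation elongation factor, and MUC19, a gel-forming mucin, fell under no rule for named genes, as RGS16 did, and these 3 are given because they complete the 24 h calls. EEF1A2 had effects of -0.02 and 0.90, with 49.5 to 63.1 FPM in the 24 h controls and 80.2 to 134 FPM with EGF. MUC19 was the one gene called lower, with effects of -0.46 and -1.07, 46.7 to 66.9 FPM in the 24 h controls and 19.7 to 41.7 FPM with EGF. The 24 h calls of CLU and EEF1A2 were lost without Control 1, 3 or 4 or EGF 1 or 4 (edgeR adjusted p up to 0.17 and 0.15, without EGF 1). Those of ASNS and MUC19 were lost without any 1 of 6 libraries (up to 0.20 without EGF 1 and 0.19 without Control 1).

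The promoters of ASNS, HERPUD1 and CARS, the cysteinyl-tRNA synthetase, are shown because genes of amino acid supply stood higher after 24 h and ATF4 acts on such genes through CARE elements. The letters searched were TGATGNAA for CARE and the consensus of ERSE-II, an element of the unfolded protein response, on both strands, and matches are in capitals. The RefSeq sequences run in the direction of the gene, and lie on chr7:97872359-97872658 (minus strand), chr16:56931892-56932191 (plus strand) and chr11:3057374-3057673 (minus strand) of GRCh38.p14.
ASNS: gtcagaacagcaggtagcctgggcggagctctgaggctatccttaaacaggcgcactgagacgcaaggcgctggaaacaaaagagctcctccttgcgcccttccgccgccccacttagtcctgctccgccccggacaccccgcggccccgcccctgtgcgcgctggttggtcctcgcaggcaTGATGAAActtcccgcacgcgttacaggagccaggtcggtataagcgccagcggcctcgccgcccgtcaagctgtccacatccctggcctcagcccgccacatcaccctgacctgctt
HERPUD1: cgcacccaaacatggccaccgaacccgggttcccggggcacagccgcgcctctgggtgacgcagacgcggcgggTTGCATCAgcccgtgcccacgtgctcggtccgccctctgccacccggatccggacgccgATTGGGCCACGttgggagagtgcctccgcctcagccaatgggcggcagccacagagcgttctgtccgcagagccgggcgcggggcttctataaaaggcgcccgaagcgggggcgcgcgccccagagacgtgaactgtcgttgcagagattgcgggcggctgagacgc
CARS: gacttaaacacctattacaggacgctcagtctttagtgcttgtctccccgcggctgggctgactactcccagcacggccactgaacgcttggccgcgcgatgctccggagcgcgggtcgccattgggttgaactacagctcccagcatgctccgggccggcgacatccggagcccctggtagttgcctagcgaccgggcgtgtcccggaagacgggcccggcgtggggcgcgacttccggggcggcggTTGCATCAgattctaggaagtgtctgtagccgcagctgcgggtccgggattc
ASNS held a CARE at -68 to -61. HERPUD1 held one on the opposite strand at -176 to -169 and an ERSE-II at -117 to -107. CARS held one on the opposite strand across the start. Of 10902 tested genes with a promoter in the table, 1.6% held a CARE (3.67% of all promoters in the table), as did 4 of 28 ATF4 targets (ASNS, CHAC1, SLC3A2 and SLC7A1) and 5 of 12 tRNA synthetases (AARS, CARS, IARS, NARS and TARS). An ERSE-II was found in 0.110% of the tested genes' promoters (0.0549% of all) and in 3 of 18 genes of the unfolded protein response (HERPUD1, HYOU1 and SDF2L1). A match of letters is a description of the window only.

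Genes of the amino acid response and the enzymes that charge tRNA were higher after 24 h as groups of small effects. Of 35 ATF4 targets, 31 had an effect above 0 after 24 h and 17 were higher at an unadjusted p under 0.05, none lower. Over all genes tested 49.1% had an effect above 0 after 24 h, 4.29% were higher at that level and 3.98% lower. After 6 h 10 were higher and 4 lower at that level, where 11.2% and 11% of all genes tested were. Their median effect was 0.19 after 6 h and 0.38 after 24 h. Of these targets STC2, a secreted glycoprotein, and SLC7A5, the LAT1 amino acid transporter, were called after 6 h (effects 0.73 and 0.78 for STC2, 0.71 and 0.63 for SLC7A5), ASNS after 24 h, and PCK2 and PHGDH for the time difference. All 20 cytosolic tRNA synthetases had an effect above 0 after 24 h, 13 of them at an unadjusted p under 0.05 (against the same 49.1% and 4.29% of all genes tested), with a median of 0.08 after 6 h and 0.30 after 24 h. None was called at either time, and the largest 24 h effect was 0.69 for CARS (edgeR adjusted p = 0.198). ATF4, the transcription factor itself, had effects of -0.25 and 0.45 and a time difference of 0.69 just outside the threshold (edgeR adjusted p = 0.0612). For the time difference, 8 of the 35 targets and 8 of the 20 synthetases were higher at an unadjusted p under 0.05 and none was lower, where 4.53% and 5.51% of all genes tested were. The lists were drawn up with results of these counts known, so that these shares are a description. Library by library, the median shift of the 35 targets against the controls was 0.44, 0.42, 0.32 and 0.40 in the 24 h EGF libraries and 0.06 to 0.12 in the controls, each set against the other controls. For the synthetases it was 0.51, 0.32, 0.28 and 0.16 with EGF and -0.07 to 0.12 in the controls, so that the EGF libraries stood apart for both lists. After 6 h the EGF libraries and the controls overlapped for both lists.

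**Figure D3:**
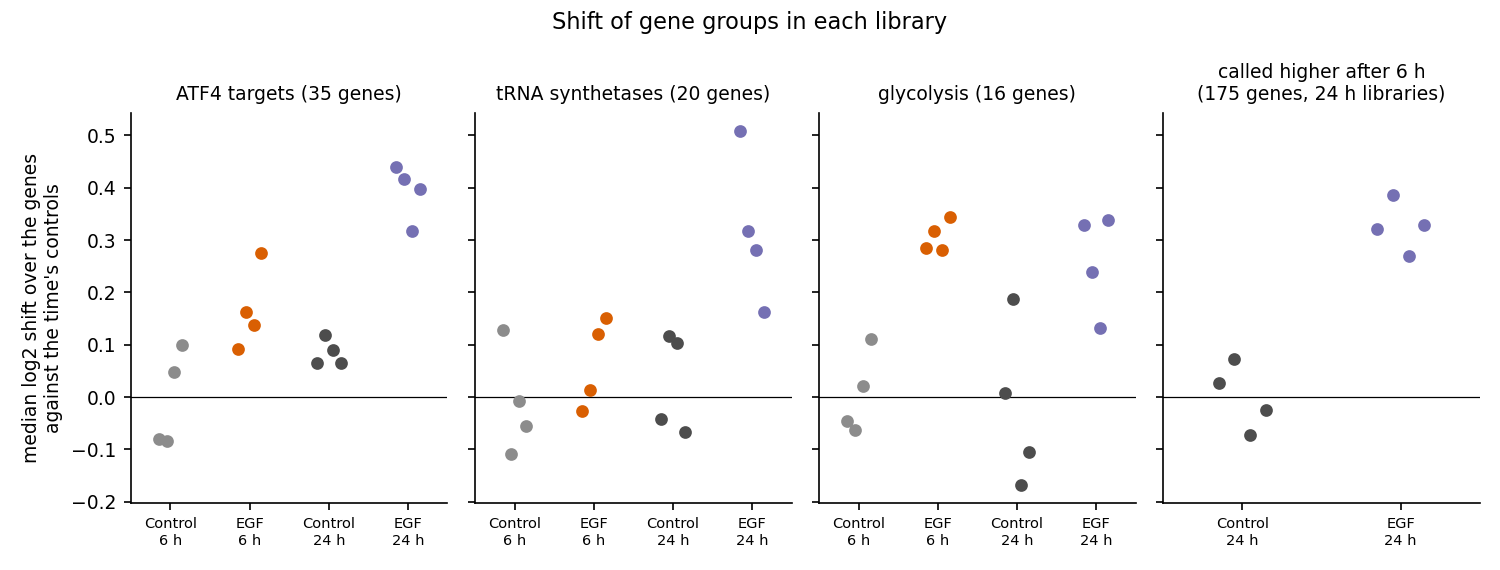
Median log2 shift of the genes of a group in each library against the mean of that time's controls (a control against the other controls), for 3 lists and for the 175 genes called higher after 6 h, whose shift is shown for the 24 h libraries only. The 24 h EGF libraries stand above every 24 h control for ATF4 targets, tRNA synthetases and the 175 genes, and overlap the controls for glycolysis.

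PCK2 and PHGDH had a called time difference without a called effect at either time. PCK2, the mitochondrial enzyme that makes phosphoenolpyruvate, held 30.7 to 40.7 FPM in the 6 h controls and 21.2 to 30.7 FPM with EGF, and 30.7 to 39.2 FPM and 49.7 to 62.4 FPM after 24 h. Its effect was -0.36 and then 0.71, a time difference of 1.06 ± 0.21 (edgeR adjusted p = 0.0442). PHGDH, the first enzyme of serine synthesis, had effects of -0.30 and 0.44 (time difference 0.74 ± 0.15, edgeR adjusted p = 0.0491). VAT1, a membrane protein of vesicles and mitochondria, had effects of -0.20 and 0.69 (time difference 0.89 ± 0.18, edgeR adjusted p = 0.0442). Each of these 3 genes was lower with EGF in the mean after 6 h and higher after 24 h, with 24 h groups apart. SFPQ, a splicing factor of paraspeckles, and HSPA8, the constitutive HSC70 chaperone, went the other way. SFPQ held 847 to 886 FPM in the 6 h controls and 968 to 1056 FPM with EGF, then 835 to 1110 FPM and 676 to 718 FPM after 24 h. Its time difference was -0.70 ± 0.12 (edgeR adjusted p = 0.0216). HSPA8 had effects of 0.45 and -0.20 (time difference -0.67 ± 0.12, edgeR adjusted p = 0.0216). The calls were lost without any 1 of 12 libraries for PCK2, 14 for PHGDH and 13 for VAT1, most clearly without EGF 1 of 6 h (edgeR adjusted p = 0.14, 0.16 and 0.14), and without any 1 of 4 for SFPQ and HSPA8 (up to 0.068 without Control 2 of 6 h).

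Of 16 genes of glucose uptake and glycolysis, a known target of growth factor signalling, 5 were called higher after 6 h and none after 24 h, without a called time difference. They were SLC2A1 and SLC2A3, the glucose transporters GLUT1 and GLUT3, the kinases HK2 and PFKP, and LDHA, which makes lactate. Of all genes tested, 1.28% were called higher after 6 h and 0.0658% after 24 h. The lack of a 24 h call among 16 genes is therefore no result about this list. SLC2A1 held 49.0 to 79.9 FPM in the 6 h controls and 136 to 171 FPM with EGF, against 32.9 to 61.8 FPM and 57.3 to 67.6 FPM after 24 h. Its effect was 1.23 and then 0.40 (time difference -0.83, 95% interval -1.31 to -0.36, edgeR adjusted p = 0.201). SLC2A3 had effects of 1.83 and 0.84 and PFKP effects of 0.67 and 0.21, with overlapping 24 h groups. LDHA had effects of 0.73 and 0.36 and HK2 effects of 0.79 and 0.46, also with overlapping 24 h groups. The time differences of LDHA and HK2 were not called (edgeR adjusted p = 0.478 and 0.513). The list median was 0.27 after 6 h and 0.28 after 24 h. The median time difference of its genes was nevertheless -0.22, with 6 of 16 above 0. At an unadjusted p under 0.05, 4 time differences were lower and 1 higher, where 5.51% and 4.53% of all genes tested were. At that level 11 genes were higher after 6 h, where 11.2% of all genes tested were, and none was lower. After 24 h 9 were higher and 1 lower, where 4.29% and 3.98% of all genes tested were.

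**Figure D4:**
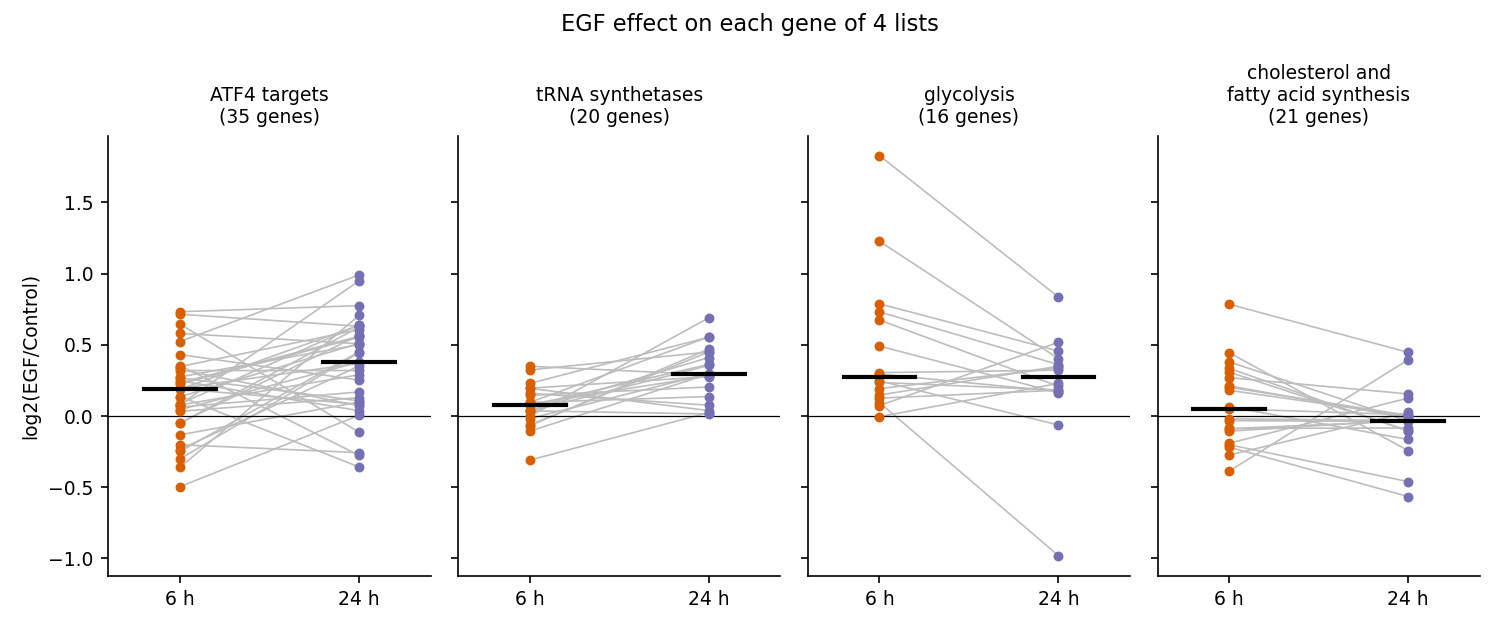
EGF effect, log2(EGF/Control), of each tested gene of 4 lists after 6 h and 24 h, joined by a line per gene, with the thick bar at the list median. The medians go from 0.19 to 0.38 for ATF4 targets, from 0.08 to 0.30 for tRNA synthetases, from 0.27 to 0.28 for glycolysis and from 0.05 to -0.03 for cholesterol and fatty acid synthesis.

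In the remaining lists few genes were called. Of all genes tested, 1.28% were called higher and 0.885% lower after 6 h, and 0.0658% and 0.00732% after 24 h. Of 18 ER chaperones and unfolded protein response genes, HERPUD1 alone was called, after 24 h, and the median was 0.05 and then 0.19. Of 19 FOXO targets and genes repressed by growth factors, ARRDC4 was called higher at both times and TXNIP lower after 6 h, and the median was -0.17 and then 0.10. Of 21 genes of cholesterol and fatty acid synthesis, INSIG1, which holds back SREBP processing, was called higher after 6 h, with effects of 0.79 and 0.45. Of 12 genes of TGF-beta signalling, TGFB1, the ligand, was called after 6 h. It held 3.58 to 7.26 FPM in the 6 h controls and 20.9 to 28.7 FPM with EGF, then 15.9 to 24.8 FPM and 30.1 to 56.4 FPM after 24 h. The TGFB1 effect was 2.03 and then 1.01, with the 24 h groups apart (edgeR adjusted p = 0.0714), and its time difference of -1.03 was not called (edgeR adjusted p = 0.230). No gene was called at either time among 21 of D and E cyclins and DNA replication, 14 of mitosis, 8 mRNA decay regulators, 12 cytoskeletal SRF targets, 12 of ribosome biogenesis and 6 EGF receptors and ligands. Their medians lay between -0.10 and 0.17 after 6 h and between -0.12 and 0.17 after 24 h. AGTR1, which codes for the transfected AT1R, held 870 to 1617 FPM over the 16 libraries, with overlapping groups at both times.

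Although single calls were few, the genes called higher after 6 h remained shifted after 24 h as a set. Their median effect was 0.79 after 6 h, the value that chose them, and 0.31 after 24 h, in libraries that the choice did not use. Of the 175, 148 (84.6%) had an effect above 0 after 24 h, and 48 (27.4%) were higher at an unadjusted p under 0.05, where 4.29% of all genes tested were. In 31 (17.7%) every 24 h EGF library exceeded every control, against 2.82% of all genes tested, and 8 had a 24 h effect at or above that after 6 h. The median shift of the 175 genes was 0.32, 0.39, 0.27 and 0.33 in the 4 EGF libraries and -0.07 to 0.07 in the 24 h controls, which did not overlap. The 95% interval of the time difference lay below 0 for 83 of the 175 and above 0 for 1, where 5.51% and 4.53% of all genes tested did. The difference contains the 6 h effect that chose these genes, so this is a description. The 121 genes called lower after 6 h had a median of -0.72 and then -0.10. After 24 h 85 of them (70.2%) had an effect below 0 and 9 (7.44%) were lower at an unadjusted p under 0.05, where 3.98% of all genes tested were, and in 3 (2.48%) every EGF library lay below every control, against 2.41%. The interval of the time difference lay above 0 for 55 of the 121. Their shift in the EGF libraries, -0.17 to 0.02, overlapped that in the controls, -0.09 to 0.06.

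The same contrasts were formed between libraries with EGF (10 µg/l) and angiotensin II (AngII, 1 nmol/l) together and libraries with AngII alone, 8 after 6 h and 7 after 24 h, none of which entered the results above. This comparison was added after the values were seen. All 15 called time differences had the same sign there, and 13 of them an unadjusted p under 0.05, where 4.35% of all genes tested had a higher and 4.89% a lower time difference. The 2 others were GJA3 (-0.26, edgeR unadjusted p = 0.283) and FUT2 (0.25, edgeR unadjusted p = 0.612). Adjusted over all genes tested, 5 passed in edgeR at 0.05, among them PGBD5, PLCXD1, SFPQ and HSPA8. HERPUD1 had a time difference of 0.77 (edgeR adjusted p = 0.135) and EGR1 one of -1.03 (edgeR adjusted p = 0.150). ASNS, not called above, had one of 1.19 (edgeR adjusted p = 0.000212). All 10 genes called after 24 h had the same sign, 9 of them with an unadjusted p under 0.05, where 3.15% of all genes tested were higher and 3.12% lower, and RGS16 was the exception (0.36, edgeR unadjusted p = 0.0715). The 175 genes had a median 24 h effect of 0.30, with 57 (32.6%) higher at an unadjusted p under 0.05. The 121 genes called lower after 6 h had medians of -0.44 after 6 h, against -0.72 with EGF alone, and -0.13 after 24 h. Only 7 of the 121 (5.79%) were lower at that level after 24 h, where 3.12% of all genes tested were. Of the ATF4 targets 25 of 35 and of the synthetases 9 of 20 were higher at that level after 24 h, and none was lower. For the time difference 15 targets were higher and 1 lower at that level, and 4 synthetases were higher and none lower. Their medians after 6 h and 24 h were 0.20 and 0.54, and 0.14 and 0.28. Among other lists, glycolysis had 0.48 and 0.14 (0.27 and 0.28 with EGF alone). The unfolded protein response had 0.18 and 0.07 (0.05 and 0.19 with EGF alone). ERK feedback inhibitors had 0.42 and 0.40 (0.22 and 0.44), and immediate early genes 0.43 and 0.22 (0.38 at both times).

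**Figure D5:**
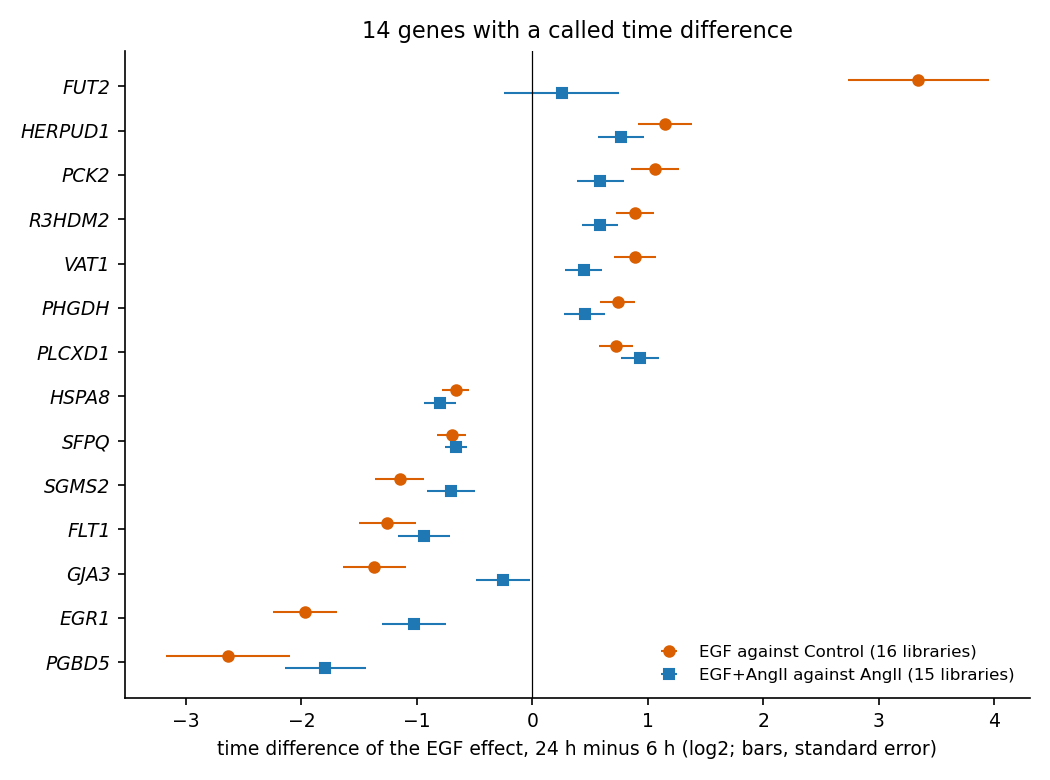
Time difference of the EGF effect (24 h minus 6 h, log2) with its standard error for 14 of the 15 genes with a called time difference, from EGF against Control libraries (circles) and from EGF+AngII against AngII libraries (squares), which share no library. The signs match for all 14 genes, and the squares of FUT2 and GJA3 lie near 0.

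The library numbers of each group fall in 2 stretches, here called runs or library series, which no label names as a batch. Over all 6 h libraries the numbers follow without a gap. In the 24 h table the columns of the first run among these 16 are named as filtered without an explanation. Within each run separately, all 15 time differences kept their sign, for example for EGR1 with effects of 4.75 and 2.48 in the first run and 3.90 and 2.47 in the second. The 15 genes were called from these same libraries, so this is a description and not a replication. The HERPUD1 effect after 24 h was 1.09 in the first run and 0.98 in the second, and that of C11orf96 was 2.25 and 0.99. When all gene types entered the library sizes and the test, only EGR1 kept a called time difference and only EGR1 and NEFM a 24 h call.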

How the data were processed

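The deposited values were read counts per gene (Ensembl identifiers with a gene type), which the authors made from paired-end, ribosomal RNA-depleted libraries with Trim Galore, cutadapt 1.8.1, TopHat2 2.0.14 on hg19 and featureCounts 1.4.6, per the submitters' processing notes. Whether strand was used is not given in the sources used here, so overlapping antisense genes are uncertain. Of 15 columns in the 24 h table, 8 are named as filtered, 4 of them used here. Columns were matched to samples by the library name in each sample's description.

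Protein-coding counts as deposited were fitted with edgeR 4.0.16 (R 4.3.3, limma 3.58.1): TMM normalization, filterByExpr over the 16 libraries (count minimum 10), quasi-likelihood tests within each time (4 EGF, 4 Control) and 1 fit of all 16 for the time difference. Adjusted p-values are Benjamini-Hochberg over the 13668 genes tested. For the time difference the level minimum of 5 FPM applied to the highest of the 4 group means, otherwise to the EGF mean for higher and the Control mean for lower genes. Genes below the count filter were tested with exact permutation tests on log2(FPM + 0.5). The fits were checked on simulated counts. Total counts per library were 4445377 to 8540815 after 6 h and 9864782 to 20773469 after 24 h, and counting intervals cover counting error only.

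Nothing states that libraries are separate cultures. The lists and classes were chosen with earlier results of these data known. Genes named are the lasting, late and fading genes, other genes with a called time difference, list members with a call and 10 fixed genes (among them FOS, EGR1, DUSP6, SPRY4 and AGTR1); CLU is a list member, RGS16, EEF1A2 and MUC19 were added after their values were seen, as were CARS, ATF4 and the sequences shown. Promoter sequences are RefSeq, GRCh38.p14, matched by symbol for 10902 tested genes. Alternatives were DESeq2 1.42.0 and its size factors, voom with quality weights, no count filter, all gene types, no fold and level minimum, all conditions in the fit, a library series block, a separate spread per time and leaving out each library. One fading gene is not reported here by name. The AngII and within-series comparisons were added after seeing the data.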

Additional observations from a re-analysis of the deposited data

Results flagged for a closer look

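In 4 of 104 combinations of a group with a gene or library measure, the extreme library stood apart by Dixon's 95% critical value for the gap over the range, where chance gives about 5.2. FLT1 was lower in EGF library 1 of 24 h than in the other 3 (ratio 0.856), NEFM lower in EGF library 1 of 6 h (0.880) and CLU apart in Control library 1 of 6 h (0.846). The share of protein-coding counts was apart in EGF library 2 of 24 h (0.834).

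The EGF effect differed between the times for 15 genes by the edgeR test of the difference. Among them, the time difference (log2, 24 h minus 6 h) was -2.64 for PGBD5, -1.97 for EGR1, -1.37 for GJA3, -1.25 for FLT1, -1.15 for SGMS2, -0.70 for SFPQ and -0.67 for HSPA8. It was 0.72 for PLCXD1, 0.74 for PHGDH, 0.89 for VAT1, 0.89 for R3HDM2, 1.06 for PCK2, 1.15 for HERPUD1 and 3.34 for FUT2. FUT2 rested on 6 to 62 counts per library and had a time difference of 0.25 on top of AngII.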

How the results depend on the processing

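Among the 61 values of single genes recomputed, 31 kept their call in every fit and none changed sign. Of the time differences only that of EGR1, and of the 24 h effects only those of EGR1 and NEFM, were among the 31. The rest were 6 h effects, which were fitted within their own time. The counts of calls moved more. The main counts were 296 genes after 6 h, 10 after 24 h and 15 time differences, with 9 fading, 4 lasting and 1 late gene. In the order 24 h, time difference, fading, lasting and late, the counts were 26, 38, 21, 11 and 5 without the count filter, 48, 61, 31, 13 and 9 with DESeq2, 20, 50, 28, 7 and 5 with all 4 conditions in the fit, and 24, 30, 17, 9 and 4 when the library series entered as a block. With all gene types they were 2, 1, 1, 2 and 0. Voom gave 30 time differences, 19 fading genes and 2 late genes, and a separate spread per time gave 38, 20 and 3. The adjusted p alone called 1000 genes after 6 h. DESeq2 and the fits without the count filter, with all conditions or with the block kept all 15 time differences and all 10 of the 24 h genes. Voom kept 12 and 8, losing PGBD5 (limma adjusted p = 0.064), PHGDH (0.055), VAT1 (0.055), RGS16 (0.060) and C11orf96 (0.15), and a separate spread per time kept 14, losing PGBD5. Leaving out 1 library gave 229 to 315 calls after 6 h, 2 to 24 after 24 h, 1 to 34 time differences, 1 to 18 fading, 2 to 8 lasting and 0 to 2 late genes. Of the 15 time differences 1 was kept without Control 2 or EGF 3 of 6 h, and of the 10 genes of 24 h 2 were kept without Control 3 or 4 of that time. The 24 h median was 0.28 to 0.35 for the genes higher after 6 h and -0.16 to -0.08 for those lower. The cause of these changes was not tested. No paired analysis was possible because replicate numbers are missing from the labels and those used here follow only the order of the samples. The wider spread after 24 h limits what single genes can show: the median standard error of a time difference was 0.24, and for 284 of the 296 genes of 6 h neither the 24 h effect nor the time difference was called.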

Other observations

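GPR50, an orphan melatonin receptor relative, had 1 to 6 counts in the 6 h controls and 39 to 74 with EGF, and after 24 h 0 to 9 and 0 to 20. SRGAP3, a GTPase-activating protein for RAC1, had effects of -1.02 after 6 h and -0.41 after 24 h. HBEGF, an EGFR ligand below the count filter, had 25 and 30 counts in Control and EGF libraries after 6 h and 24 and 61 after 24 h (exact permutation test, two-sided, unadjusted p = 0.057 and adjusted p = 0.54 after 24 h). SLC7A11, the cystine transporter, had 24 h effects of 0.99 with EGF alone (edgeR adjusted p = 0.0714) and 1.55 on top of AngII.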
